A study of Mus musculus with 20 samples.

Results

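Thrombospondin 1 (Thbs1), fibronectin (Fn1), osteopontin (Spp1), transforming growth factor beta-induced protein (Tgfbi), osteonectin (Sparc), the thrombospondin receptor Cd47 and its counter-receptor Sirpa were followed across cultured mouse macrophages. The genes were chosen by name, and all 7 were among the 14456 genes of the table. Thbs1 stood out in earlier results because its level was lower after exposure to exosomes from macrophages kept in high glucose, so every comparison with that group is given here as a description without a test. Differences between high and normal glucose, and between control exosomes and PBS, are no part of that contrast and were tested, although their earlier results were known as well.

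Bone marrow-derived macrophages (BMDM) of male wild-type C57BL/6 mice, differentiated with M-CSF, were used in all 5 groups of 4 libraries. No group carried an engineered allele. The age of the mice is given as 8 weeks in part of the sources and as a range from 8 weeks upward elsewhere. The glucose experiment exposed the cells over 24 h to high glucose (25 mM) or to normal glucose (5.5 mM, with 19.5 mM mannitol, a sugar alcohol that balances the osmotic pressure). In the exosome experiment, naive BMDM were exposed for 24 h to PBS, to exosomes of BMDM kept in normal glucose (BMDM-NG-exo) or to exosomes of BMDM kept in high glucose (BMDM-HG-exo). Each library that received exosomes had a separate exosome preparation. Exosomes are small vesicles that cells release. The mice behind each library are not given in the sources used here, so the spread between libraries may be technical. The p-values and standard errors (SE) of the main fits draw that spread largely from genes of similar level. They therefore do not measure only the spread between the libraries of the gene itself.

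The values are normalized counts, that is, stranded total RNA reads per gene divided by a size factor for each library. Libraries held between 34016445 and 56310712 reads on the listed genes, and the median correlation of a library with the others of its group ran from 0.991 to 0.994, so no library stood apart. Macrophage identity was clear: all 8 macrophage markers were listed, and their summed normalized count was between 628420 and 878735 in every library. Other cell types left less signal. Of 10 fibroblast and stromal markers, 6 were listed, with summed counts between 158 and 429, and of 8 platelet and megakaryocyte markers only Pf4 and Itga2b were listed, with summed counts between 291 and 872. The neutrophil list had 5 of 10 markers listed (summed counts between 165 and 378), the lymphoid list 1 of 8 (Cd4, between 35.4 and 117), and the dendritic list 0 of 6.

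Thrombospondin 1, osteopontin, osteonectin and TGFBI are matricellular proteins: they are secreted into the matrix, where they change how cells attach and signal rather than bear load. Fibronectin is a structural glycoprotein of the same matrix. Thrombospondin 1 releases active TGF-beta from its latent complex and binds CD47, a membrane protein found on nearly all cells. CD47 also engages SIRPA on macrophages, and SIRPA then recruits the phosphatase SHP-1 (Ptpn6), which restrains phagocytosis.

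The sites through which these proteins meet their receptors are short, and the coding stretches that spell them are shown because they are where the ligands of the group meet integrins, CD47 and latent TGF-beta. The RGD motif (arginine, glycine, aspartate) is the contact for several integrins. It was found in the reading frames of Thbs1, Fn1, Spp1 and Tgfbi and not in those of Sparc, Cd47 or Sirpa. Thbs1 also encodes a TGF-beta-activating peptide and a CD47-binding peptide of its carboxyl-terminal domain, and neither peptide was found in the other genes. All stretches are read 5′ to 3′ on the coding strand from GENCODE M21 transcripts, and capitals mark the codons of the motif.

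Thbs1, RGD: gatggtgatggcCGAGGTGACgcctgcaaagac
Thbs1, TGF-beta-activating peptide: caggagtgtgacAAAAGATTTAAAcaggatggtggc
Thbs1, CD47-binding peptide: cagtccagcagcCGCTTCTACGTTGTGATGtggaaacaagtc
Fn1, RGD: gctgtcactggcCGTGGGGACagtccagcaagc
Spp1, RGD: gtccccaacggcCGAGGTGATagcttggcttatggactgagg
Tgfbi, RGD: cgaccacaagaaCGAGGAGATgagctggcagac

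On GRCm38, the TGF-beta-activating stretch of Thbs1 runs across the junction of exons 8 and 9 of 22 (chr2:118117639-118118178), its RGD stretch across that of exons 17 and 18 (chr2:118122677-118122902), and its CD47-binding stretch lies in exon 19 (chr2:118123360-118123401). The Fn1 stretch is the first of 2 RGD sites in its reading frame and lies in exon 30 of 46 (chr1:71606734-71606766, minus strand). The Spp1 stretch lies in exon 6 of 7 (chr5:104439469-104439510), and the lower-case bases after its capitals encode the adjoining contact for integrin alpha 9 beta 1. The Tgfbi stretch lies in exon 15 of 17 (chr13:56637143-56637175). The reads were summed over whole genes, so the values below say nothing about single exons.

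Per kb of exon, the 7 genes fell into abundant and scarce transcripts. Spp1 (ENSMUSG00000029304, chr5:104435118-104441050, plus strand) had a mean of 31362 normalized counts per kb over the 20 libraries, and Sirpa (ENSMUSG00000037902, chr2:129592835-129632228, plus strand) had 13571. Tgfbi (ENSMUSG00000035493, chr13:56609523-56639562, plus strand) followed with 2481 per kb, Thbs1 (ENSMUSG00000040152, chr2:118111876-118127133, plus strand) with 2145 and Cd47 (ENSMUSG00000055447, chr16:49800533-49915010, plus strand) with 1249. These 5 genes were abundant in every library. Fn1 (ENSMUSG00000026193, chr1:71585520-71653200, minus strand) reached only 13.7 per kb and Sparc (ENSMUSG00000018593, chr11:55394500-55423183, minus strand) 7.56 per kb. Between 61 and 264 reads per library lay behind the Fn1 values and between 7 and 67 behind those of Sparc. The other 5 genes each had at least 6082 reads in every library.

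**Figure D1:**
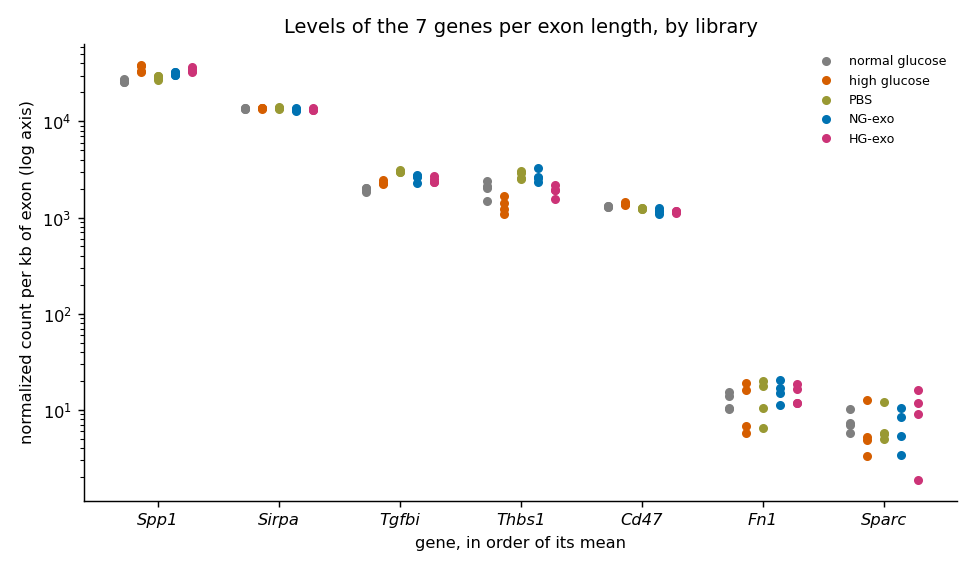
Normalized count per kb of exon in each of the 20 libraries (log axis), for the 7 genes in the order of their means and coloured by group. Spp1 (mean 31362 per kb) and Sirpa (13571) lay above Tgfbi (2481), Thbs1 (2145) and Cd47 (1249), and Fn1 (13.7) and Sparc (7.56) lay far below all of these.

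The genes also differed in how much replicate libraries scattered. The coefficient of variation of Sirpa within a group was between 0.857% and 2.78%, and that of Cd47 between 1.51% and 5.30%. For Thbs1 it was between 9.65% and 18.9%, where counting error alone would give at most 1.10%. Thbs1 was thus the most scattered of the 5 abundant genes, and its spread was larger than counting error. Sparc (25.4% to 64.0%) and Fn1 (20.5% to 56.1%) scattered more still. Counting error alone would give up to 20.7% for Sparc and up to 8.50% for Fn1, and both genes scattered more than that.

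**Figure D2:**
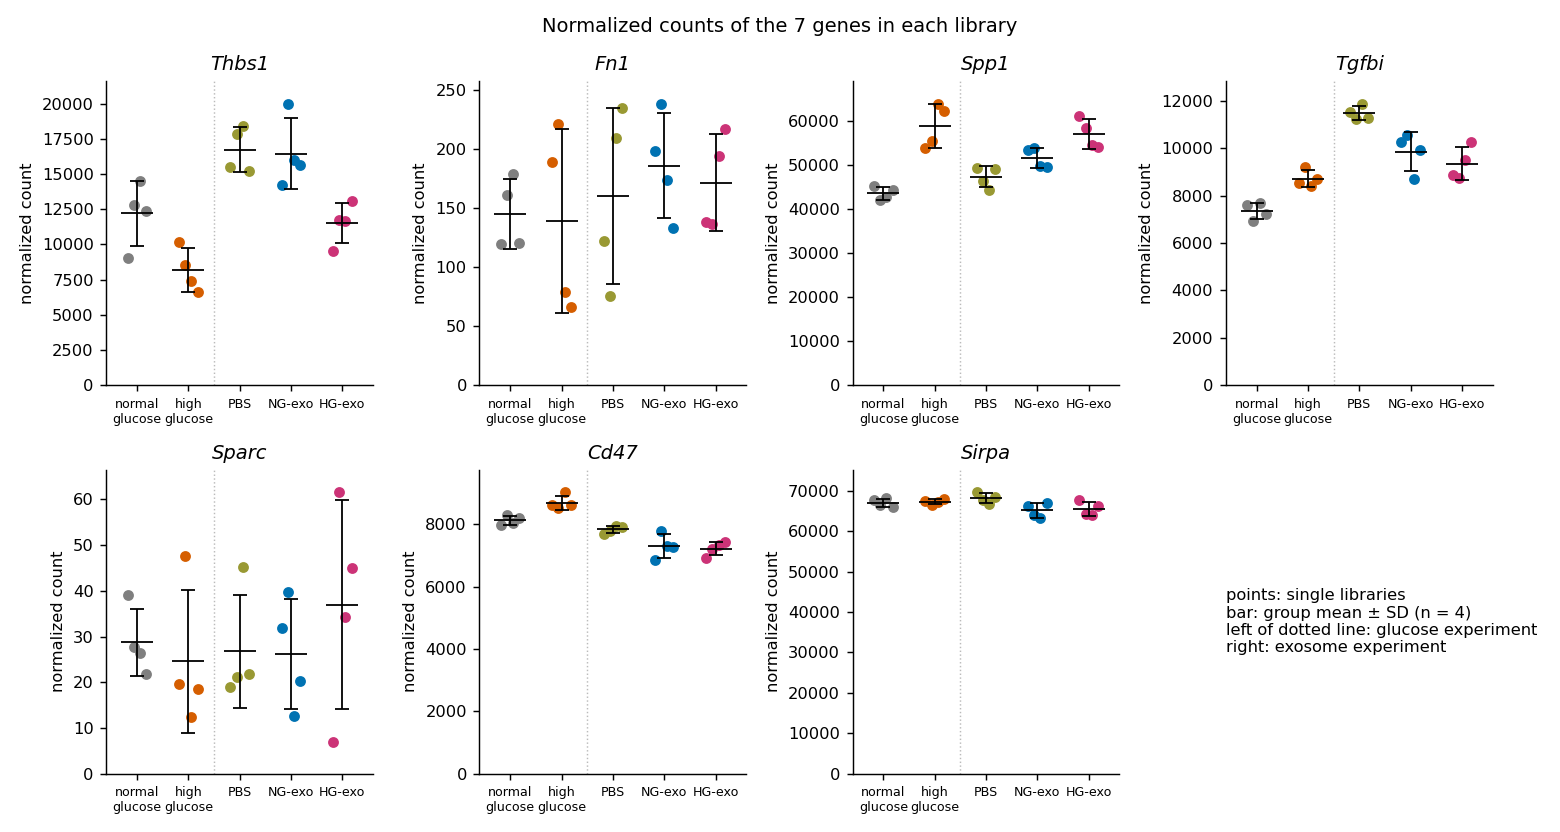
Normalized count (vertical axes, from 0) of each of the 7 genes in each library, with the glucose experiment left and the exosome experiment right of the dotted line, and group means ± SD (n = 4). Thbs1 was low and Spp1 high both in high glucose and after BMDM-HG-exo, Tgfbi was highest with PBS, and Sirpa stayed between 63223 and 69640 throughout.

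High glucose was first compared with normal glucose, to ask whether the genes change in macrophages that are themselves exposed to glucose. Thbs1 fell, while Spp1 and Tgfbi rose. Fn1, Sparc, Cd47 and Sirpa did not pass the test. Counts were compared on the log2(normalized count + 1) scale with limma, and a gene was called at a Benjamini-Hochberg adjusted p-value under 0.05 over all genes tested. Of the 7 genes, 1 was lower and 2 were higher, where 5.53% of the 14425 genes tested were called lower and 7.74% higher (13.3% in all). Of all calls, 1116 of 1914 were higher, and with quantile normalization 789 of 1661.

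In the 4 normal glucose libraries, numbered 1, 3, 5 and 6 by their labels, the Thbs1 normalized counts were 9068, 12844, 14524 and 12383. In the 4 high glucose libraries, numbered 1, 2, 4 and 6, they were 10205, 8518, 7385 and 6654. The groups overlapped through a single library, normal glucose 1, which lay below high glucose 1, and 3 of the 4 high glucose libraries lay below all normal glucose libraries. The mean fell from 12204 ± 2284 to 8191 ± 1546 (SD, n = 4), a log2 fold change of -0.57 (SE 0.089, limma adjusted p = 1.05e-05). This p-value takes the spread from the trend over genes of similar level, and without that trend the adjusted p was 0.123, so the limma call rests on it. On read counts the adjusted p was 6.18e-06 in edgeR and 0.0218 in DESeq2. The sum of the 2 listed platelet and megakaryocyte markers, most of it Pf4, was also lower in high glucose. This sum was between 595 and 872 with normal and between 291 and 463 with high glucose. Pf4 fell by 1.11 on the log2 scale (SE 0.12, limma adjusted p = 2.39e-08), and Itga2b was not called. The part of these markers in the result was not tested, and in these bulk samples fewer cells of a type and less RNA per cell cannot be told apart.

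Spp1 encodes osteopontin, a secreted ligand of integrins and CD44 that macrophages make in large amounts. The normal glucose libraries had 45335, 42051, 42657 and 44234 normalized counts of Spp1, and the high glucose libraries had 53772, 55439, 63971 and 62313. Every high glucose library lay above every normal glucose library, and groups were separate in either direction for 16.3% of all genes tested in this comparison. Its mean rose from 43569 ± 1494 to 58874 ± 5021 (SD, n = 4), a log2 fold change of 0.43 (SE 0.041, limma adjusted p = 5.82e-10). Spp1 shares its strand with a listed gene that overlaps it, Gm42793, which had between 99.7 and 209 normalized counts, and how reads in the shared stretch were assigned is not given in the sources used here.

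Tgfbi, named for its induction by TGF-beta, encodes a matrix protein that links collagens to integrins. In normal glucose its normalized counts were 7585, 6910, 7675 and 7231, and in high glucose they were 8553, 9216, 8408 and 8699. Again the groups did not overlap. The mean rose from 7350 ± 351 to 8719 ± 352 (SD, n = 4), and the log2 fold change was 0.25 (SE 0.040, limma adjusted p = 2.49e-05). The summed macrophage markers, of which Lyz2 is the largest part, were higher in high glucose as well, between 808014 and 878735 against 628420 to 702912. Of the 8 markers, 4 were called higher, Lyz2 among them (0.42), and 2 lower, Mertk (-0.40, SE 0.042, limma adjusted p = 7.85e-09) and Cd68 (-0.15, SE 0.032, limma adjusted p = 0.00129). Their part in the rise of Spp1 and Tgfbi was not tested.

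Of the receptor pair, Cd47 was slightly higher in high glucose, with a mean of 8692 ± 226 against 8127 ± 141 (SD, n = 4), and its groups did not overlap either. Its log2 fold change of 0.10 (SE 0.036) missed the threshold in limma (adjusted p = 0.0753) and passed it in DESeq2 (adjusted p = 0.0398). Sirpa was close to level, at 67299 ± 577 and 67061 ± 1001, with a log2 fold change of 0.0052 (SE 0.030, limma adjusted p = 0.943). Among the structural and scarce genes, Fn1 ranged from 66.4 to 221 with high and from 120 to 179 with normal glucose (log2 fold change -0.23, SE 0.26, limma adjusted p = 0.628). Sparc ranged from 12.5 to 47.7 and from 21.8 to 39.0 (log2 fold change -0.36, SE 0.41, limma adjusted p = 0.638). Without high glucose library 2 the Sparc value was -0.73, and without high glucose library 4 it was -0.11.

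**Figure D3:**
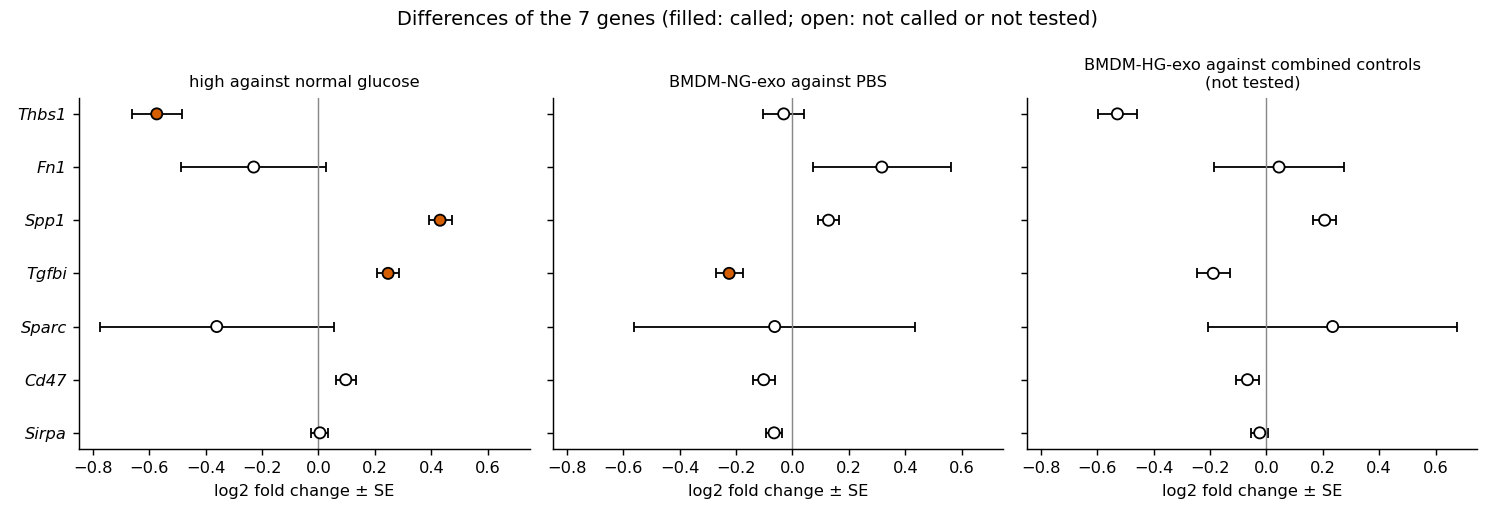
Log2 fold change ± SE (horizontal axes) of the 7 genes in high against normal glucose (8 libraries), BMDM-NG-exo against PBS (4 libraries each) and BMDM-HG-exo against the 8 control libraries, with called genes filled and the last comparison not tested. In high glucose Thbs1 lay at -0.57, Spp1 at 0.43 and Tgfbi at 0.25, and with BMDM-NG-exo Tgfbi lay at -0.22. The SE draw largely on the spread of genes of similar level.

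BMDM-NG-exo were then compared with PBS, which asks what exosomes of macrophages in normal glucose do on their own. Tgfbi fell, and none of the other 6 genes passed both the adjusted p-value of 0.05 and the absolute log2 fold change of 0.15 that the exosome experiment required. Of all 14413 genes tested, 3% were called, 2.11% as lower and 0.888% as higher. For Tgfbi the normalized counts were 11541, 11258, 11890 and 11286 with PBS and 10275, 10548, 8689 and 9937 with BMDM-NG-exo. All 4 exosome libraries lay below all PBS libraries, and groups were separate in this way for 8.27% of the genes tested. The mean fell from 11494 ± 293 to 9862 ± 821 (SD, n = 4), a log2 fold change of -0.22 (SE 0.047, limma adjusted p = 0.00281). Without the trend over genes, the adjusted p was 0.214.

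Spp1 stayed below the limit on the fold change. Its normalized counts were 49422, 46282, 44405 and 49042 with PBS, and 53467, 53764, 49781 and 49599 with BMDM-NG-exo. The groups did not overlap, although the lowest exosome library lay only just above the highest PBS library. Its mean was 47288 ± 2377 with PBS and 51653 ± 2271 with BMDM-NG-exo (SD, n = 4), a log2 fold change of 0.13 (SE 0.037, limma adjusted p = 0.0481). Thbs1 had similar values in these groups, with 15545, 17841, 18418 and 15198 after PBS and 14208, 20027, 15996 and 15650 after BMDM-NG-exo. Its range with exosomes enclosed that with PBS, and its log2 fold change was -0.03 (SE 0.072, limma adjusted p = 0.912). Cd47 was at 7309 ± 388 against 7837 ± 118 with PBS (log2 fold change -0.10, SE 0.039, limma adjusted p = 0.196), and Sirpa at 65160 ± 1811 against 68159 ± 1208 (log2 fold change -0.07, SE 0.029, limma adjusted p = 0.292). For Fn1 the log2 fold change was 0.32 (SE 0.24, limma adjusted p = 0.639), moving to 0.0030 without PBS library 2 and to 0.54 without PBS library 4. For Sparc it was -0.06 (SE 0.50, limma adjusted p = 0.979). Both genes overlapped widely between the groups.

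After BMDM-HG-exo, Thbs1 had its lowest values of the exosome experiment. They were 9568, 11753, 11693 and 13074, and all 4 lay below the lowest of the 8 control libraries (14208, a BMDM-NG-exo library). The mean was 11522 ± 1450 (SD, n = 4) against 16610 ± 1951 (SD, n = 8), a log2 fold change of -0.53 (SE 0.070). Set against each control alone, the log2 fold change was -0.51 for BMDM-NG-exo and -0.54 for PBS. These comparisons share the BMDM-HG-exo libraries, and Thbs1 was chosen for this difference, so no test is given. Between BMDM-HG-exo and the 8 controls, 1.17% of all genes tested had groups that did not overlap, and 0.201% were called. The platelet and megakaryocyte sum was between 350 and 438 after BMDM-HG-exo, inside the range of the 8 controls (328 to 521). The summed macrophage markers, of which Lyz2 is the largest part, were between 735061 and 759636, below all PBS libraries (794502 to 841224) and among the BMDM-NG-exo libraries (717507 to 773976). Of the 8 markers, 2 were called lower against the 8 controls, Itgam (-0.29, SE 0.051, limma adjusted p = 0.0125) and Fcgr1 (-0.39, SE 0.082, limma adjusted p = 0.0392), and 1 had a log2 fold change above 0. Their part in the Thbs1 values was not tested.

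Spp1 was the other gene of the group whose values did not overlap here. After BMDM-HG-exo its normalized counts were 61126, 58369, 54569 and 54110, above the highest control library (53764). The mean of 57043 ± 3324 (SD, n = 4) compares with 49470 ± 3174 (SD, n = 8), a log2 fold change of 0.21 (SE 0.042). Tgfbi, at 8855, 8753, 9515 and 10271, lay below all PBS libraries, as 10% of all genes lay apart from PBS in one direction or the other, and among the BMDM-NG-exo libraries. Its log2 fold change was -0.30 (SE 0.047) against PBS and -0.08 (SE 0.047) against BMDM-NG-exo. Cd47 differed in the same manner, by -0.12 (SE 0.039) from PBS and -0.02 (SE 0.039) from BMDM-NG-exo. Sirpa, Fn1 and Sparc overlapped with the controls, with log2 fold changes of -0.02 (SE 0.030), 0.04 (SE 0.23) and 0.23 (SE 0.44). Sparc included both the lowest and the highest value of the whole series after BMDM-HG-exo, at 7.04 and 61.6.

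The libraries of the exosome experiment carry 4 dates, each with 1 library per group, so the order of the groups can be read within a date. Where groups did not overlap, the order within each date was already fixed by that, and only the sizes are new. This holds for Thbs1 after BMDM-HG-exo, for both steps of Spp1, and for Tgfbi in BMDM-NG-exo against PBS. Thbs1 was lowest after BMDM-HG-exo on 4 of 4 dates. Its difference from BMDM-NG-exo was smallest on the date labelled 01-15-20, at 13074 against 15650 (-16.5%), and largest on 12-11-19, at 11753 against 20027 (-41.3%). PBS and BMDM-NG-exo changed places between dates, each being the higher on 2 of 4. Spp1 kept the order PBS, BMDM-NG-exo, BMDM-HG-exo from low to high on 4 of 4 dates. Its step from PBS to BMDM-NG-exo was between 1.13% and 16.2%, and its step from BMDM-NG-exo to BMDM-HG-exo was between 8.57% and 14.3%. Tgfbi was lower after BMDM-NG-exo than after PBS on 4 of 4 dates, with differences between -6.30% and -26.9%. BMDM-HG-exo lay below BMDM-NG-exo in Tgfbi on 2 dates and above it on the other 2. Sirpa was lower after BMDM-NG-exo than PBS on 4 of 4 dates as well, with differences between -2.04% and -5.54%, and Cd47 on 3 of 4.

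**Figure D4:**
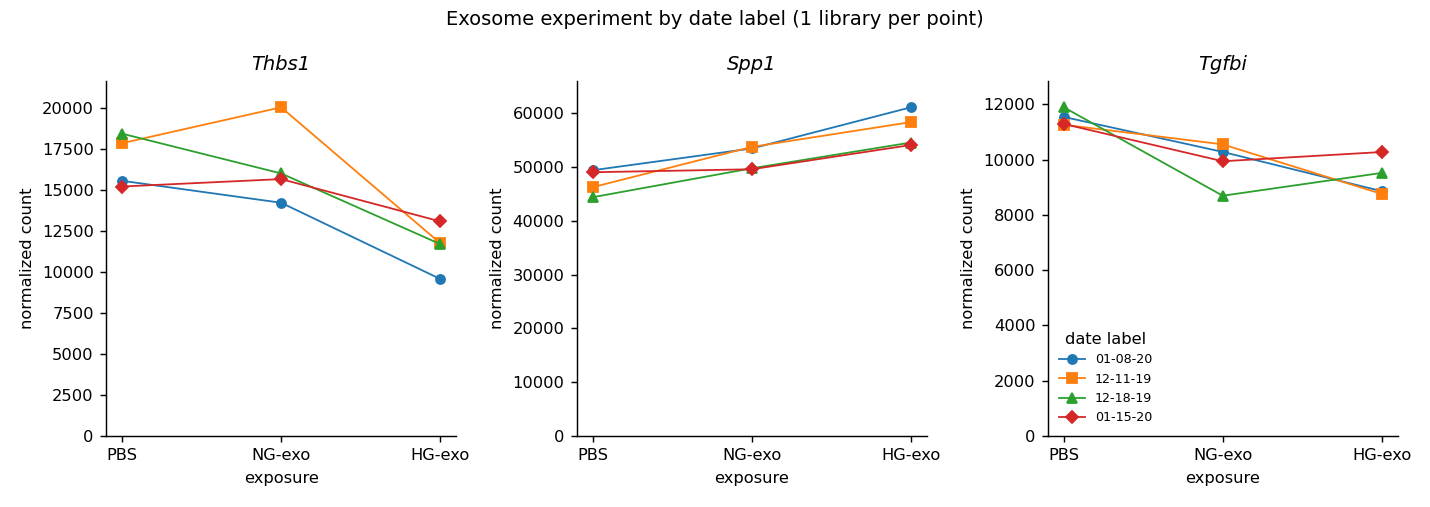
Normalized count (vertical axes, from 0) of Thbs1, Spp1 and Tgfbi in the exosome experiment, with 1 line for each of the 4 date labels and 1 library per point. On each date Thbs1 was lowest and Spp1 highest after BMDM-HG-exo, whereas Tgfbi dropped from PBS to BMDM-NG-exo on each date.

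Over all 5 groups, the mean of Thbs1 fell in the order PBS (16751), BMDM-NG-exo (16470), normal glucose (12204), BMDM-HG-exo (11522) and high glucose (8191), and each group overlapped with the next. For Spp1 the order was high glucose (58874), BMDM-HG-exo (57043), BMDM-NG-exo (51653), PBS (47288) and normal glucose (43569). Only the neighbours at its ends overlapped, high glucose with BMDM-HG-exo and PBS with normal glucose. Tgfbi ran from PBS (11494) over BMDM-NG-exo (9862), BMDM-HG-exo (9348) and high glucose (8719) to normal glucose (7350). In this order PBS stood clear of BMDM-NG-exo and high glucose stood clear of normal glucose, whereas the neighbours between them overlapped. Cd47 was highest in high glucose (8692) and lowest after BMDM-HG-exo (7222). Culture and experiment cannot be told apart in an order that spans both experiments, and it was not tested.

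Thbs1 and Spp1 ran against each other when differences between groups were kept. With the mean of each experiment removed, their Pearson r over the 20 libraries was -0.84. This value includes the differences between the groups, among them the BMDM-HG-exo difference for which Thbs1 was chosen. An r within groups was not computed for this pair. Tgfbi and Cd47 had an r of 0.71 in the same data, and Tgfbi and Sirpa one of 0.53. Thbs1 and Tgfbi had an r of 0.06. All libraries share 1 normalization, and these values are descriptions without a test.

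The genes most like each of the 7, by the same r among genes with a mean of at least 50, were as follows. Nearest to Thbs1 were Fcgrt (r = 0.89), Vegfa (0.88) and Kctd12 (0.88), which encode an IgG transport receptor, a vascular growth factor and a channel-domain protein. With group means removed as well, their r was 0.68, 0.76 and 0.80. Spp1 was most like Hsph1 (0.95), Stom (0.93) and Rnh1 (0.93), and Tgfbi most like Plekhg3 (0.95), Tmem176b (0.94) and Ly6e (0.93). Cd47 was nearest to Ccr2 (0.87), the chemokine receptor of inflammatory monocytes, to the macrophage marker Adgre1 (0.85) and to Samd9l (0.84). Sirpa was nearest to Ehbp1l1 (0.88), the receptor kinase Axl (0.86) and Adam15 (0.86). Without the group means, the same neighbours had r of 0.71, 0.69 and 0.66 for Spp1 and 0.81, 0.77 and 0.72 for Tgfbi. For Cd47 the values were 0.62, 0.60 and 0.58, and for Sirpa 0.87, 0.85 and 0.83. By the first r, which includes group differences, the scarce genes had looser neighbours, at most 0.76 for Fn1 (Psrc1) and 0.71 for Sparc (Zfp763). Without the group means this was not so. The values were then 0.76, 0.74 and 0.80 for Fn1 and 0.71, 0.71 and 0.71 for Sparc, above those of Cd47.

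Around these genes, 90 others of 4 pathway lists were tested: relatives of the thrombospondins and other matricellular proteins, structural matrix proteins, receptors with the CD47-SIRPA pathway, and TGF-beta signalling. In high against normal glucose, 22 of the 90 (24.4%) were called, 16 higher and 6 lower, beside 13.3% of all genes. The median log2 fold change of the 90 was 0.05, and that of all genes was -0.0031.

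Of the 9 matricellular genes tested, 1 was called, the abundant galectin Lgals3, at 65476 ± 2412 against 56683 ± 3301 (log2 fold change 0.21, SE 0.036, limma adjusted p = 6.50e-05). The median log2 fold change of the 9 genes was -0.09. Thbs2 and Thbs3, listed relatives of Thbs1, had means of at most 26.6 normalized counts in every group. They were not called (log2 fold change -0.43 and -0.64). Comp, of the same list, had a mean of at most 35.9 in every group and was not called either (0.95). Of 24 structural matrix genes, 4 were higher and 2 lower, with a median of 0.17. Col18a1, the source of endostatin, rose from 1378 ± 83.6 to 2243 ± 104 (log2 fold change 0.70, limma adjusted p = 2.24e-11), and the large proteoglycan Vcan from 414 ± 56.6 to 648 ± 56.6 (0.65, adjusted p = 1.24e-05). Emilin2 (0.37) and serglycin, Srgn (0.27), also rose, whereas Efemp2 (-0.48) and the laminin chain Lama3 (-0.40) fell.

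The receptors held most of the calls, with 9 of 31 higher, 3 of 31 lower and a median of 0.08. Itga9 and Itgb3 are the integrin chains of these lists that fell. Itga9, whose protein pairs with beta 1 to bind osteopontin beside its RGD motif, went from 786 ± 30.6 to 502 ± 33.8 (log2 fold change -0.65, SE 0.084, limma adjusted p = 5.42e-07). Itgb3, the partner of alpha V in the vitronectin receptor, went from 393 ± 19.3 to 245 ± 15.9 (log2 fold change -0.68, SE 0.12, limma adjusted p = 5.36e-05). Its partner Itgav rose by 0.20 on the log2 scale, and the osteopontin and hyaluronan receptor Cd44 fell by 0.21. Downstream of SIRPA, the phosphatase gene Ptpn6 rose by 0.27 (12681 ± 665 to 15327 ± 157, limma adjusted p = 7.01e-07) and the adaptor Fyb by 0.20. Sirpb1c, of a receptor family with near-identical copies, rose by 0.48, and reads may have been split between the copies. In the TGF-beta list, 3 of 26 genes were called, Skil (0.23) and Furin (0.12) as higher and Ltbp3 (-0.16) as lower, with a median of 0.03. Tgfb1, the ligand, was not called, at 10763 in high and 11240 in normal glucose.

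In BMDM-NG-exo against PBS, 7 of the 90 genes (7.78%) were called, beside 3% of all genes, and all 7 were lower. The median log2 fold change of the 90 was -0.08, and that of all genes was 0.0045. Of the structural list, Agrn (-0.40) and Col18a1 (-0.35) fell. Of the receptors and SIRPA pathway, Ptpn6 (-0.23) and the syndecans Sdc3 (-0.21) and Sdc4 (-0.15) fell, and of the TGF-beta list Skil (-0.17) fell. No matricellular gene was called by limma, edgeR or DESeq2, and 1 of 9 had an unadjusted p under 0.05, beside 1947 of all 14413 genes. Macrophage markers moved here too: 5 of 8 were called lower, Csf1r among them (-0.22, SE 0.033, limma adjusted p = 2.50e-05), and the summed macrophage markers were between 717507 and 773976 against 794502 to 841224 with PBS. The part of this shift in the changes of Tgfbi and the list genes was not tested.

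In BMDM-HG-exo against the combined controls, limma and edgeR called 0 of the 90 list genes, where limma called 0.201% of all genes, and 19 of the 90 had an unadjusted p under 0.05, beside 1511 of all 14413 genes. DESeq2 called 3, beside 127 of all genes, and all 3 were lower: Itga9 (-0.46), the kinase Fgr (-0.37) and Skil (-0.17). In limma their adjusted p-values were 0.0705, 0.0705 and 0.0725. Of the list medians, that of the structural genes was -0.08, that of the receptors -0.07, that of the TGF-beta genes -0.03 and that of the matricellular genes 0.06.

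**Figure D5:**
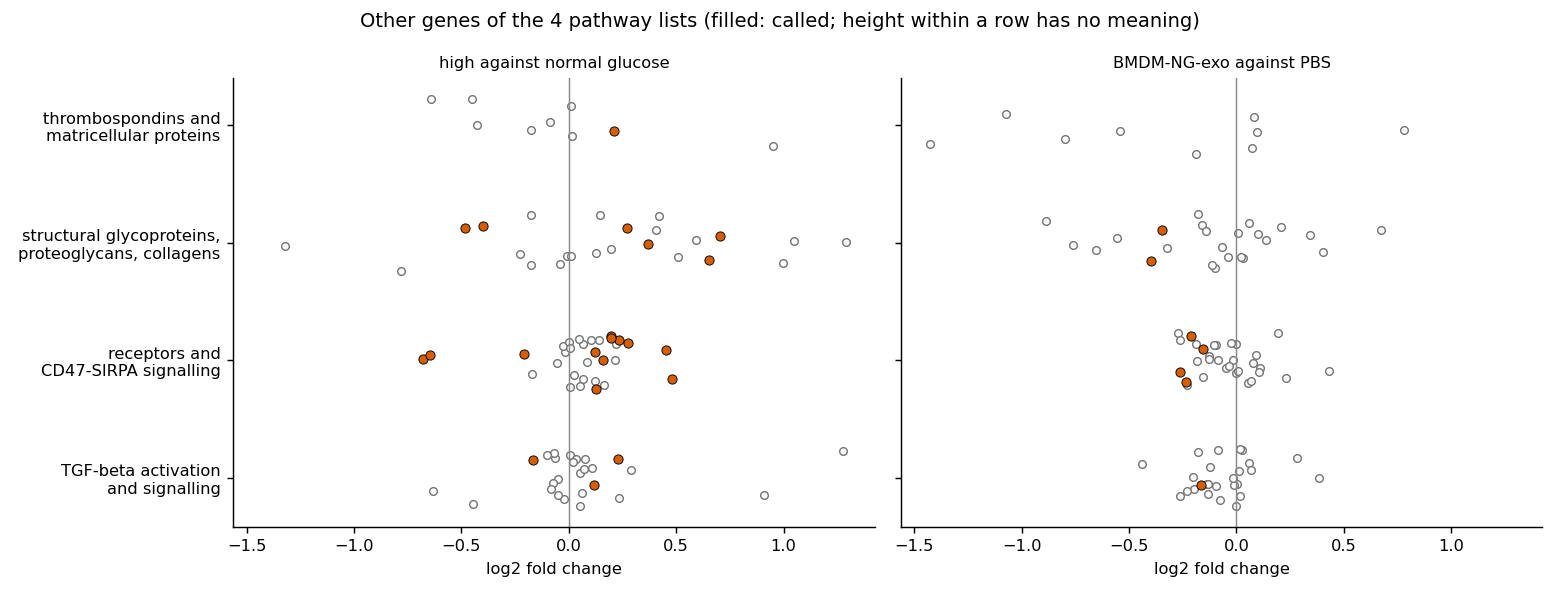
Log2 fold change (horizontal axes) of each of the 90 other genes of the 4 pathway lists in high against normal glucose and in BMDM-NG-exo against PBS, with called genes filled. In high glucose 16 filled points lay above 0 and 6 below. Of the filled points, Itga9 (-0.65) and Itgb3 (-0.68) lay farthest to the left. With BMDM-NG-exo all 7 filled points lay below 0.

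Fn1 and Sparc are typical products of stromal cells, and their values were read beside the stromal markers. PBS library 3 had the highest stromal sum of the series (429) and the highest Sparc of its group (45.2), and PBS library 2 had the lowest stromal sum (192) and the lowest Fn1 (75.3) of its group. However, the highest Fn1 of that group was in PBS library 4 (234), and its lowest Sparc was in PBS library 1 (19.0). In normal glucose, the highest Sparc (39.0, library 1) came with a stromal sum of 215, below the 329 of library 3. In the exosome experiment, BMDM-HG-exo library 1 had the lowest stromal sum (158) and the lowest Sparc (7.04). The highest Sparc, in BMDM-HG-exo library 2, came with a stromal sum of 245, which is lower than in all but 1 of the PBS libraries. The part of stromal RNA in the scatter of Fn1 and Sparc was not tested. The most abundant stromal markers, Col1a1 and Col1a2, had medians of 91.7 and 78.3 normalized counts.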

How the data were processed

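The deposited signal is a normalized gene count: the authors mapped stranded total RNA reads with STAR, counted them with featureCounts and divided each library by its DESeq2 size factor. GRCm38 and cutadapt are named in the submitters' processing notes, and the annotation is not given in the sources used here. The median read count of a listed gene was 11 or more. Names, coordinates and exon lengths came from GENCODE M21, in which 14421 of 14456 genes had an entry. Whole reads were recovered from the smallest step of each column (100% of values whole within 0.01 reads) and used for totals, edgeR 4.0.16 and DESeq2 1.42.0. The step is within 1% of 1 for 2 libraries (PBS 4, BMDM-HG-exo 1), where scaled and unscaled counts look alike. No pair of libraries in a group was a copy (chi-square per degree of freedom at least 5.23 over 30 pairs).

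Log2(normalized count + 1) entered limma 3.58.1 (lmFit, eBayes with trend; R 4.3.3), two-sided, with Benjamini-Hochberg adjustment over genes whose mean reached 10. The adjusted p-value of a call was under 0.05, and exosome comparisons further required a log2 fold change of 0.15 or more in size. BMDM-NG-exo and PBS were compared in a fit of all 12 exosome libraries, and BMDM-HG-exo with 8 controls in a fit of its own. The members and gene lists were chosen with earlier results of these data known. Beside the 7 members, the text names, per list, comparison and direction, up to 4 called genes with the smallest p-values, and the 3 genes most like each member. Other list and marker genes (Thbs2, Thbs3, Comp, Tgfb1, Csf1r, Lyz2, Mertk, Cd68, Itgam, Fcgr1, Pf4, Fgr) were named after their values were seen. Values of 1 further list gene are not reported here. Dates in the labels pair the exosome libraries, which share a day (deviations of same-date libraries correlated at 0.012 on average). Alternatives changed the pseudocount, filter, normalization, trend, tool, block, call limits and libraries. The fits were tested on simulated data. Python 3.11.15 with pandas 2.3.3, numpy 2.4.6 and matplotlib 3.10.9 wrote the tables and drew the figures.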

Additional observations from a re-analysis of the deposited data

Results flagged for a closer look

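In PBS library 3, Sparc had 45.2 normalized counts, while the other 3 PBS libraries had between 19.0 and 21.8. Its gap to the nearest library was 0.892 of the group's range, above Dixon's 95% critical value for 4 samples. Of 35 groups of values tested for the 7 genes, this was the only 1 that stood apart, and chance flags about 1 in 20. The same library had the highest summed stromal markers (429), whose part in the value was not tested.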

How the results depend on the processing

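Over 14 results of the 7 genes, 285 alternative values were computed, and 273 kept their direction and their side of the threshold. Without the variance trend, Thbs1 in high glucose lost its call (adjusted p = 0.123, log2 fold change -0.57), as did Tgfbi after BMDM-NG-exo (adjusted p = 0.214, log2 fold change -0.22), which left 0 of the 7 genes called in that comparison. The pathway genes called without it were 8 in high glucose and 2 after BMDM-NG-exo, and the calls over all genes fell from 1914 to 654 and from 432 to 95. With BMDM-HG-exo against the controls, calls over all genes went from 29 to 1 without the trend and to 127 in DESeq2, and the higher ones were 10 of 29, or 9 of 19 with quantile normalization. DESeq2 also called Cd47 in high glucose (log2 fold change 0.09) and 3 pathway genes after BMDM-HG-exo. Without a limit on the fold change, 2 of the 7 genes were called after BMDM-NG-exo, Spp1 being the second. Its limma adjusted p of 0.0481 lay close to the threshold. That value was 0.00152 with quantile normalization and 0.412 without the trend, and it ranged from 0.0253 to 0.198 with a library left out.

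Values near 0 changed sign. On the log2 scale, Sirpa in high glucose was -0.015 with quantile normalization and ranged from -0.0024 (without normal glucose library 6) to 0.013 with a library left out, and Fn1 from -0.52 to 0.059 (without high glucose library 6). After BMDM-NG-exo, Thbs1 ranged from -0.13 to 0.036 (without BMDM-NG-exo library 1), with 0.00095 without PBS library 2 and 0.016 without PBS library 3. Sparc ranged from -0.30 to 0.23 (without BMDM-NG-exo library 3), with 0.014 without library 4 and 0.21 without PBS library 3. None of these passed the test, and the cause was not tested.

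With each library left out in turn, 3 of the 7 genes were called in high glucose throughout, with Thbs1 between -0.71 and -0.48, and 1 after BMDM-NG-exo. Pathway genes called ranged from 17 to 22 in high glucose and from 6 to 9 after BMDM-NG-exo. After BMDM-HG-exo they ranged from 0 to 4, with 1 call without BMDM-HG-exo library 4, 2 without BMDM-NG-exo library 1 and 4 without BMDM-NG-exo library 3. The described Thbs1 difference ranged from -0.59 to -0.44.

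In a paired fit with the date as a block, BMDM-NG-exo against PBS gave the same call for each of the 7 genes (Tgfbi adjusted p = 0.00125) and 9 pathway calls. In the glucose experiment the library numbers are not stated to pair, and only 2 are shared. Deviations of same-numbered libraries correlated at 0.0071 on average. That block put Thbs1 at -0.36 on the log2 scale (limma adjusted p = 6.07e-08). The value rests on numbers 1 and 6 alone, where Thbs1 went from 9068 to 10205 and from 12383 to 6654. These 2 pairs went in opposite directions, and the p-value takes its spread almost wholly from the trend over genes. With that block, 3 of the 7 genes and 15 pathway genes were called, and all calls moved from 1914 to 788.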
